A study of Mus musculus with 8 samples.

Results

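The clustered histone genes are the copies of the H1, H2A, H2B, H3 and H4 genes that sit together in a few clusters of the mouse genome and carry symbols beginning with Hist1h to Hist4h. They were chosen by that symbol alone, which gave 62 genes of the 16796 listed in the deposited tables: 6 H1, 17 H2A, 16 H2B, 12 H3 and 11 H4 genes. In RefSeq's gene table, 49 of them lie on chromosome 13, 9 on chromosome 3, 3 on chromosome 11 and 1 on chromosome 6. One copy, Hist1h2bj, had been singled out because its counts were near 0 in the wild-type livers, so its values are a description and carry no test.

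Whole-liver RNA was sequenced from 4 wild-type (WT) mice and 4 mice with a liver-specific knockout of E4bp4 (E4bp4-LKO), the gene listed as Nfil3. Both groups were 2 months old when they started a diet that induces non-alcoholic steatohepatitis (NASH), and both stayed on it for 20 weeks. The labels name no strain, sex, littermate status or Cre driver, and no group on regular chow was analysed here. Nfil3 lies on chromosome 13, as do 49 of the clustered histone genes, and the part of this shared chromosome was not tested. Each library carries its own number (WT 164 to 167; E4bp4-LKO 143, 144, 145 and 179), and p-values measure the spread between these libraries only.

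Each nucleosome holds a pair of each core histone, H2A, H2B, H3 and H4, and the linker histone H1 binds where DNA enters and leaves it. Most clustered histone genes are replication-dependent: they have no introns, are transcribed mainly in S phase, and make mRNAs that end in a conserved stem-loop in place of a poly(A) tail. The stem-loop binding protein SLBP binds that hairpin, and some of these genes also make polyadenylated transcripts in cells that no longer divide. Most hepatocytes of an adult liver are not dividing. E4BP4 is a bZIP factor that binds D-box elements and mostly represses transcription.

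The stem-loop is shown first because replication-dependent histone mRNAs end in it, although a transcript model that runs on past it does not end there. In GENCODE M21 transcripts, a hairpin of GGNNCT, 4 bases of any kind and AGNNCC, with all 6 stem pairs matched, was found in 42 of the 47 members whose model reaches 40 bases or more past the stop codon, 21 to 58 bases after it. Capitals mark the 16-base hairpin, and the flanking 5 bases on each side are in lower case.
Hist1h2bj: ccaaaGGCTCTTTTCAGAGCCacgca
Hist1h1c: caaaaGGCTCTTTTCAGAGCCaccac
Hist2h2aa1: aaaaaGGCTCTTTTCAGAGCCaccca
Hist1h4i: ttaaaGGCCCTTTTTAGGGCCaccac
Hist1h2bk: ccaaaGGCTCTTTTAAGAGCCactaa
The first 3 share the hairpin found in 24 members, and the Hist1h4i and Hist1h2bk hairpins differ from it. The models of Hist1h2bc and Hist2h2be run 742 and 2192 bases past the stop codon without this hairpin. Of the 42 hairpin models, 17 end within 50 bases of it and 22 run on for 100 bases or more. Among those printed, the Hist1h1c and Hist1h4i models run on for 840 and 330 bases. Those of Hist1h2bj, Hist2h2aa1 and Hist1h2bk run on for 23, 35 and 30 bases. The model of Hist1h2ba, the testis-type H2B, ends at its stop codon, so its 3′ end could not be searched.

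Library totals ran from 23805540 to 32290265 expected counts, so that 3 counts, used here as the detection floor, equal 0.0929 to 0.126 CPM, the counts scaled to a common library total. Levels below are CPM with totals adjusted by edgeR's trimmed mean of M-values (TMM), or FPKM, which also divides by transcript length, where genes are compared with each other. TMM factors lay between 0.941 and 1.16, highest in WT 164 and WT 165. Nfil3 lay between 8.78 and 16.5 CPM in the WT livers and between 3.33 and 6.22 CPM in the E4bp4-LKO livers, with no overlap (log2 fold change -1.35, SE 0.25, adjusted p = 0.0121 by edgeR's quasi-likelihood test; exact two-sided permutation p = 0.0286 over 70 arrangements, the smallest that 4 against 4 allows). Of 13244 genes tested, 578 rose and 858 fell at an adjusted p below 0.05. The share that fell was 59.7% of the calls with TMM and 85.1% with library totals alone, which move the median of all genes by -0.15 on the log2 scale.

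The 62 genes together took 0.0135% to 0.0203% of the counts of a library. Their summed level was 158, 173, 191 and 207 CPM in WT and 140, 194, 171 and 155 CPM in E4bp4-LKO livers, with overlapping groups (log2 ratio of means -0.14). Only 18 members were listed in all 8 libraries, and 30 to 37 were listed in any one. Counts sufficed to test 13 members. Of the other 49, 17 never reached 3 counts in a library, 23 peaked between 3 and 10 counts, and 9 peaked at 10 or more, up to 41.83 counts. Among these 49, 8 were listed in WT libraries only, 9 in E4bp4-LKO libraries only and 32 in both, and in none did the groups separate.

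Of the 13, Hist1h2bj and Hist1h2ba lay higher in E4bp4-LKO livers and the other 11 did not pass edgeR's quasi-likelihood test, with 0 called lower. Of all genes tested, 4.36% were called higher and 6.48% lower. The groups separated upward in the same 2 members and downward in 0, against 8.82% and 9.69% of all genes tested. Hist1h2bj was chosen for this contrast, and both genes passed the filter on low counts through the E4bp4-LKO libraries alone, so nothing is read from the count and neither is given a test. Of the 13 tested members 5 had an unadjusted p below 0.05, 2 of them with a negative fold change, beside 3748 of all 13244 genes tested. DESeq2 called 1 member lower and limma on FPKM called 3 lower. The shares of all genes called lower by DESeq2 and limma are not given here, so nothing is read from these counts. In the limma fit on log2(FPKM + 1) the median of all genes was itself -0.11. The median log2 fold change of the 13 was -0.19, beside 0.01 for all genes tested, with 4 estimates above 0 and 9 below. Members that passed a filter on low counts are not a sample of all 62.

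**Figure D1:**
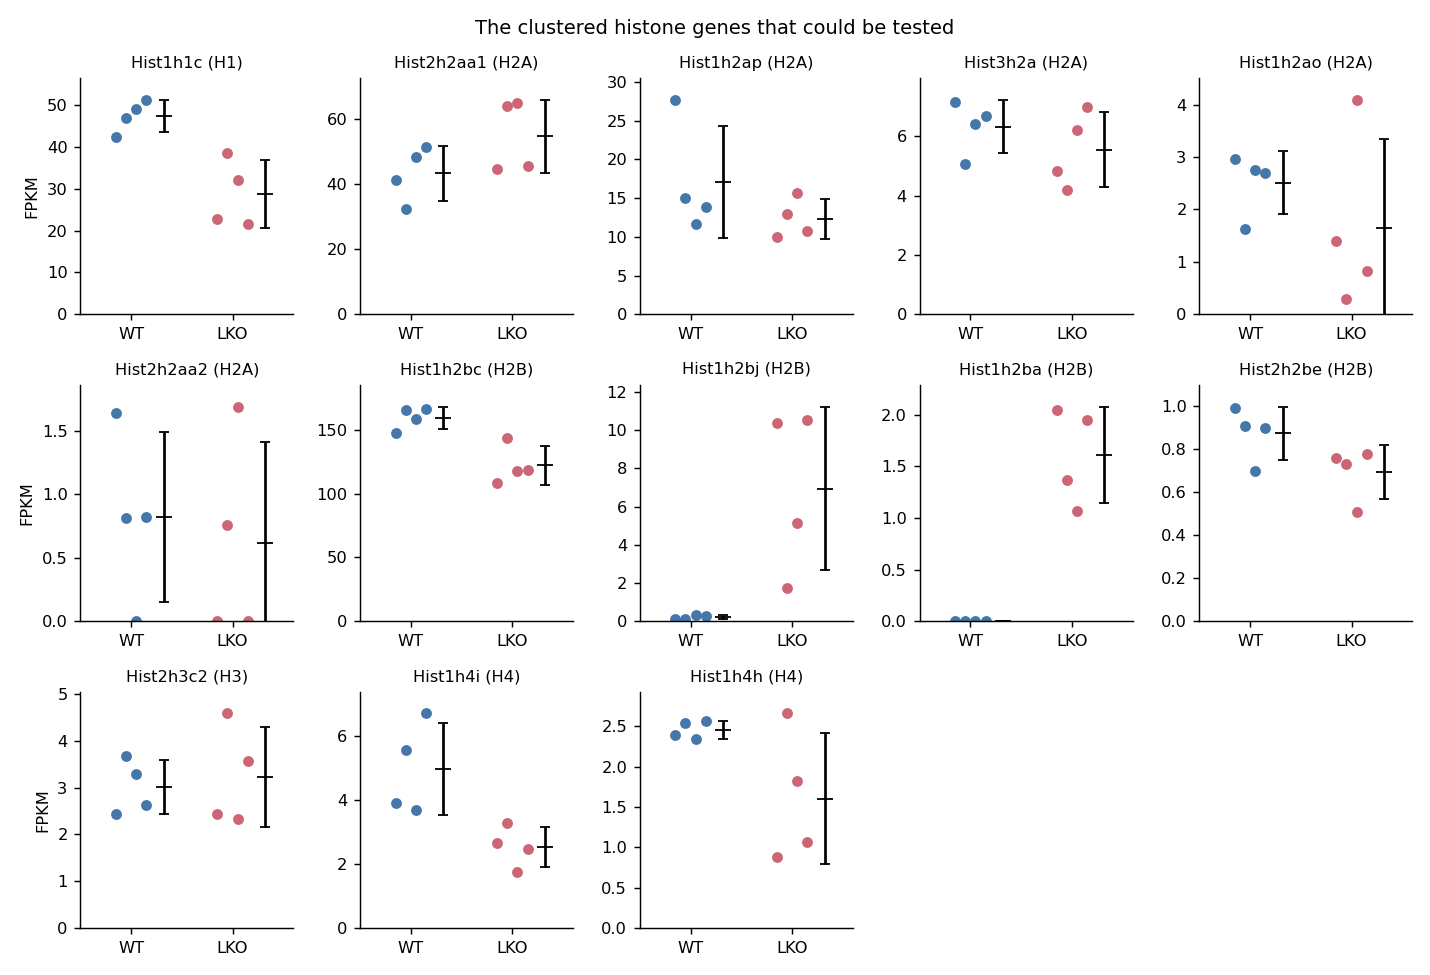
FPKM of the 13 clustered histone genes with enough counts to test, in each of 4 WT (blue) and 4 E4bp4-LKO (LKO, red) livers, on linear axes that start at 0; bars are the mean ± SD. Hist1h2ba is listed at 0 in every WT liver, and Hist1h2bj lies between 1.72 and 10.53 FPKM in the E4bp4-LKO livers against 0.11 to 0.30 in WT.

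H2B was the most abundant type and was carried by 1 copy. Hist1h2bc was at 148, 166, 158 and 167 FPKM in WT 164, 165, 166 and 167. In E4bp4-LKO 143, 144, 145 and 179 it was at 109, 144, 118 and 119 FPKM. It made up 96.7% to 97.6% of all H2B counts in WT and 90.9% to 95.3% in E4bp4-LKO livers. On the CPM scale it was at 89.9, 108, 111 and 119 in WT and at 79.6, 108, 87.8 and 88.9 in E4bp4-LKO, and these ranges overlap (log2 fold change -0.23, SE 0.11, edgeR adjusted p = 0.188). On the FPKM scale, where the median gene is lower in E4bp4-LKO by 0.11 on the log2(FPKM + 1) scale, its groups did not overlap and limma called it lower (log2 fold change -0.39, adjusted p = 0.0174).

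Hist1h2bj, a canonical H2B, had 1.29, 1.62, 3.45 and 3.31 expected counts in WT 164 to 167. It had 116.53, 22.27, 59.34 and 100.34 expected counts in E4bp4-LKO 143, 144, 145 and 179. The 4 E4bp4-LKO livers were all above the 4 WT livers, with the lowest of them, 144, well below the other three. Scaled, this was 0.0373 to 0.121 CPM in WT and 4.31, 0.733, 2.18 and 4.48 CPM in E4bp4-LKO. Pooled over each group, the level was 35.9 times higher in E4bp4-LKO, with the spread between livers left out. Its share of all H2B counts was 0.0401% to 0.106% in WT and 4.92%, 0.649%, 2.35% and 4.57% in E4bp4-LKO. In 2 of the WT libraries it was below the floor of 3 counts.

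Hist1h2ba encodes the H2B of male germ cells. It was listed at 0 in all 4 WT libraries and at 23.18, 17.89, 12.40 and 18.72 expected counts in E4bp4-LKO 143, 144, 145 and 179, or 0.858, 0.589, 0.456 and 0.835 CPM. Against the floor of 3 counts in each WT library, its pooled level was at least 7.0-fold higher in E4bp4-LKO, and it was listed in 4 of 4 of these livers. Its level was more even between livers than that of Hist1h2bj: the ratio of Hist1h2bj to Hist1h2ba counts was 5.03, 4.79 and 5.36 in E4bp4-LKO 143, 145 and 179 and 1.24 in 144.

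Markers of the cell types a liver can hold were read beside these H2B copies, with no list for germ cells. Alb, the main secretory product of hepatocytes, was at 50782 ± 5455 CPM in WT and 58311 ± 6817 CPM in E4bp4-LKO livers (SD, n = 4 each). The summed levels of the hepatocyte list and of the stellate and fibroblast list did not overlap between groups. The hepatocyte list (Alb, Ttr, Apoa1, Cps1, Serpina1c) summed to 54560 to 71456 CPM in WT and 71532 to 89225 CPM in E4bp4-LKO, with 1 of 5 genes called higher. The stellate and fibroblast list (Lrat, Des, Col1a1, Dcn) summed to 450 to 779 CPM and 279 to 370 CPM, with 2 of 4 genes called lower. The macrophage list (Adgre1, Clec4f, Cd68, C1qa) summed to 283 to 334 CPM and 202 to 298 CPM, with C1qa and Cd68 called lower (edgeR adjusted p = 0.00606 and 0.0226). In the endothelial, cholangiocyte, T cell and megakaryocyte lists the sums overlapped and edgeR called 0 genes, with 1, 4, 0 and 1 at an unadjusted p below 0.05. DESeq2 called Kdr higher and Krt7 and Epcam lower among these. In the hepatocyte and the stellate and fibroblast lists it also called Cps1 higher and Col1a1 lower, which edgeR did not. Limma on log2(FPKM + 1) called 0 of the endothelial, cholangiocyte, T cell and megakaryocyte markers. It could test only 3, 3, 0 and 1 of them. No marker of these lists was below 3 counts in every library. The part of these shifts in the histone results was not tested, and in whole liver fewer cells of a type and less RNA per cell cannot be told apart.

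The remaining H2B copies gave few counts. Hist2h2be, from the chromosome 3 cluster, was at 2.25, 2.20, 1.83 and 2.41 CPM in WT and 2.07, 2.04, 1.43 and 2.19 CPM in E4bp4-LKO, with overlapping groups (log2 fold change -0.17, SE 0.19, edgeR adjusted p = 0.615). Hist1h2bk could not be tested in the edgeR fit. It was listed at 3.39 counts in WT 164 and at 0 in the other WT libraries, and at 0, 35.85, 5.99 and 5.64 counts in E4bp4-LKO 143, 144, 145 and 179. The E4bp4-LKO liver with the fewest Hist1h2bj counts thus had the most Hist1h2bk counts, while 143, which had the most Hist1h2bj counts, had 0. DESeq2, which does not use the same filter, called Hist1h2bk higher. Nothing is read from that call, which rests on counts found mainly in E4bp4-LKO 144. Of the other H2B copies, Hist1h2be peaked at 10.79 counts, and the rest stayed below 8 counts.

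Because H2B copies are near-identical, the sequence limits how well they can be told apart. Hist1h2bj and Hist1h2bc have coding parts of 381 bases that differ at 4 bases, counted from the A of the start codon with the Hist1h2bc base first: G57C, G126C, C162T and G226A. The stretch from coding base 45 to 238 holds all 4, shown in capitals.
Hist1h2bc: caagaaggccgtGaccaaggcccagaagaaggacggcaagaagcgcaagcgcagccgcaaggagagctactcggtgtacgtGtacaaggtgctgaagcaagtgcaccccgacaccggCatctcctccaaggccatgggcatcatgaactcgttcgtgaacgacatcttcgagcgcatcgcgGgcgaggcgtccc
Hist1h2bj: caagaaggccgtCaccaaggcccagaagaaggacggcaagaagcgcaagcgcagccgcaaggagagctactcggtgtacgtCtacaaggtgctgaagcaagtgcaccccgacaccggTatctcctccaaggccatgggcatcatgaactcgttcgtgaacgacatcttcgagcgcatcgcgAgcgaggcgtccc
Of the 50-base windows of the Hist1h2bj transcript, 40.6% occur in no other GENCODE gene, 59.4% are shared with Hist1h2bq and 35.3% with Hist1h2bc. Hist1h2ba is further away: its coding part is 88.8% identical to that of Hist1h2bj, and 61.8% of its windows are its own. The other 38.2% are shared with Hist1h2bj. The entries of Hist1h2ba and Hist1h2bj may thus not be separate measurements, and how reads were split between them was not tested. In the WT livers Hist1h2bc gave 3110.99 to 3529.17 counts while Hist1h2bj stayed at or below 3.45.

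Fractional counts were the rule in these genes. Between 80.0% and 94.3% of the member entries of a library were fractional, against 25.9% to 27.3% of all entries. Summed by type, the entries returned to whole numbers within 0.05 counts in 8 of 8 libraries for H1, H3 and H4. For H2B the sum was whole in 4 of 8 libraries, with a largest deviation of 0.21. For H2A it was whole in 1 of 8, and in 6 of 8 once the replication-independent H2A genes H2afj and H2afx were added, a grouping tried after the values were seen.

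Some pairs could hardly be told apart at all. Over the 62 members the median share of 50-base windows found in no other gene was 50.4%, 13 members had fewer than 10% and 4 had windows of their own only. Hist1h2bq and Hist1h2br had equal entries in 8 of 8 libraries and together came to 0.148 ± 0.074 CPM in WT and 0.235 ± 0.115 CPM in E4bp4-LKO (SD, n = 4 each). Hist1h2ao had entries that were whole multiples (9, 5, 8, 8, 4, 1, 12 and 2, in the order WT 164 to 167 and E4bp4-LKO 143, 144, 145 and 179) of 5.15 counts, and it shares 93.5% of its windows with Hist1h2ap. Hist2h2aa2 was at 0 in 3 libraries and Hist2h3c1 in 7, beside their partners Hist2h2aa1 and Hist2h3c2, which were listed in all 8. For these members the entry of a single copy is uncertain, and the H2A and H3 pairs are given as sums below.

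H2A levels came mainly from Hist2h2aa1, a canonical H2A of the chromosome 3 cluster, which held 54.3% to 79.5% of the H2A counts. It was at 41.4, 32.5, 48.5 and 51.5 FPKM in WT and at 44.7, 64.0, 65.0 and 45.6 FPKM in E4bp4-LKO. E4bp4-LKO 144 and 145 were above every WT liver, and 143 and 179 lay within the WT range (log2 fold change 0.48, SE 0.20, edgeR adjusted p = 0.148). With its near-identical partner Hist2h2aa2 added, the pair summed to 22.5 ± 5.44 CPM in WT and 31.1 ± 6.88 CPM in E4bp4-LKO (SD, n = 4 each), with overlap. Hist2h2aa2 alone, tested on a highest count of 27.97, gave a log2 fold change of -0.19 with an SE of 1.05 and an edgeR adjusted p of 0.930.

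Hist1h2ap was at 27.7, 15.1, 11.7 and 13.8 FPKM in WT and at 9.99, 12.9, 15.7 and 10.7 FPKM in E4bp4-LKO. WT 164 stood above the other 7 livers, which overlapped (log2 fold change -0.29, SE 0.23, edgeR adjusted p = 0.458). Hist1h2ao, its near-copy, had a log2 fold change of -0.44 with an SE of 0.60 (adjusted p = 0.685), and the pair summed to 7.98 ± 2.36 and 6.44 ± 1.95 CPM (SD, n = 4 each). Hist3h2a, the H2A of the chromosome 11 cluster, was at 7.16, 5.06, 6.42 and 6.68 FPKM in WT and 4.82, 4.19, 6.20 and 6.98 FPKM in E4bp4-LKO, with overlap (edgeR adjusted p = 0.930, log2 fold change -0.04, SE 0.20). None of the 5 tested H2A copies passed edgeR's test, DESeq2's or limma's, and 1, Hist2h2aa1, had an unadjusted p below 0.05.

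The linker histone signal was 1 gene. Hist1h1c, which encodes H1.2, held 95.5% to 98.8% of the H1 counts. It was at 42.5, 46.8, 49.1 and 51.3 FPKM in WT and at 22.8, 38.5, 32.1 and 21.7 FPKM in E4bp4-LKO, with every E4bp4-LKO liver below every WT liver on this scale. On the TMM scale it was at 25.7, 30.3, 34.4 and 36.6 CPM in WT and 16.6, 28.8, 23.9 and 16.1 CPM in E4bp4-LKO, where E4bp4-LKO 144 overlapped WT 164. It did not pass edgeR's test (log2 fold change -0.57, SE 0.19, adjusted p = 0.0852). It passed with DESeq2 (adjusted p = 0.0271), with limma on log2(FPKM + 1) (log2 fold change -0.74, adjusted p = 0.0193), with library totals (adjusted p = 0.0216) and in edgeR without E4bp4-LKO 144 (adjusted p = 0.0404).

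The other H1 genes were scarce. Hist1h1d, which encodes H1.3, was at 8.46, 13.55, 5.63 and 10.35 expected counts in WT and 2.29, 2.58, 4.11 and 5.41 in E4bp4-LKO, which overlap once scaled for depth. Hist1h1e, which encodes H1.4, peaked at 14.87 counts, and Hist1h1a, Hist1h1b and the testis-type Hist1h1t never exceeded 3 counts. H1f0, the linker histone gene outside the clusters that is known for its level in non-dividing cells, was at 96.1 ± 4.87 CPM in WT and 118 ± 15.6 CPM in E4bp4-LKO (SD, n = 4 each), and did not pass (log2 fold change 0.30, SE 0.10, edgeR adjusted p = 0.0675).

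H3 counts were few, 49 to 100 per library over 12 genes. Hist2h3c2 held 47.7% to 92.8% of them. It was at 2.44, 3.69, 3.30 and 2.63 FPKM in WT and 2.43, 4.59, 2.33 and 3.57 FPKM in E4bp4-LKO, with overlapping groups (log2 fold change 0.25, SE 0.26, edgeR adjusted p = 0.580). Its near-copy Hist2h3c1 was listed in WT 167 only, at 41.83 counts, and the pair summed to 2.16 ± 0.75 CPM in WT and 2.13 ± 0.72 CPM in E4bp4-LKO (SD, n = 4 each). The 10 other H3 genes peaked at 4.96 counts or less.

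H4 was carried by Hist1h4i and Hist1h4h. Hist1h4i was at 3.91, 5.56, 3.69 and 6.71 FPKM in WT and 2.66, 3.27, 1.75 and 2.46 FPKM in E4bp4-LKO, where the groups did not overlap. On the TMM scale it was at 1.26 to 2.55 CPM in WT and 0.692 to 1.30 CPM in E4bp4-LKO, with overlap (log2 fold change -0.82, SE 0.29, edgeR adjusted p = 0.0897). It passed with library totals (adjusted p = 0.0440) and with limma on log2(FPKM + 1) (log2 fold change -0.74, adjusted p = 0.0232). Hist1h4h was at 2.39, 2.54, 2.34 and 2.57 FPKM in WT and spread from 0.88 to 2.66 FPKM in E4bp4-LKO (log2 fold change -0.44, SE 0.34, edgeR adjusted p = 0.444). The 9 other H4 genes peaked at 12.58 counts or less.

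Summed over all copies, which removes the sharing of reads within a type, no type separated the groups on the TMM scale. H1 summed to 26.1, 31.1, 34.9 and 37.5 CPM in WT and 16.8, 29.1, 24.1 and 16.9 CPM in E4bp4-LKO (log2 ratio of means -0.57). H4 summed to 2.80, 3.05, 3.09 and 3.85 CPM in WT and 1.78, 2.93, 1.76 and 2.23 CPM in E4bp4-LKO (log2 ratio -0.56). In both types only E4bp4-LKO 144 reached into the WT range. H2A summed to 34.9, 25.7, 36.2 and 39.4 CPM in WT and 32.4, 45.4, 50.4 and 34.8 CPM in E4bp4-LKO (log2 ratio 0.26). H2B summed to 92.9, 111, 114 and 122 CPM in WT and 87.6, 113, 92.8 and 97.9 CPM in E4bp4-LKO (log2 ratio -0.17), and H3 to 2.50 ± 0.71 and 2.45 ± 0.73 CPM (SD, n = 4 each). Without Hist1h2bc the H2B log2 ratio was 1.20, and without Hist2h2aa1 the H2A log2 ratio was -0.26, so in both the sign is set by the most abundant copy. The H2B value of 1.20 includes Hist1h2bj, chosen for this contrast, at a mean of 0.0808 CPM in WT and 2.93 CPM in E4bp4-LKO. It also includes Hist1h2ba at 0 and 0.684 CPM, while Hist2h2be was at 2.17 and 1.93 CPM. On the FPKM scale the H1 and H4 sums did separate: H1 summed to 43.0 to 52.55 FPKM in WT and 22.6 to 39.0 FPKM in E4bp4-LKO, and H4 to 7.95 to 9.89 and 4.36 to 7.22 FPKM. The median gene was also lower in E4bp4-LKO on that scale, by 0.11 in log2(FPKM + 1).

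**Figure D2:**
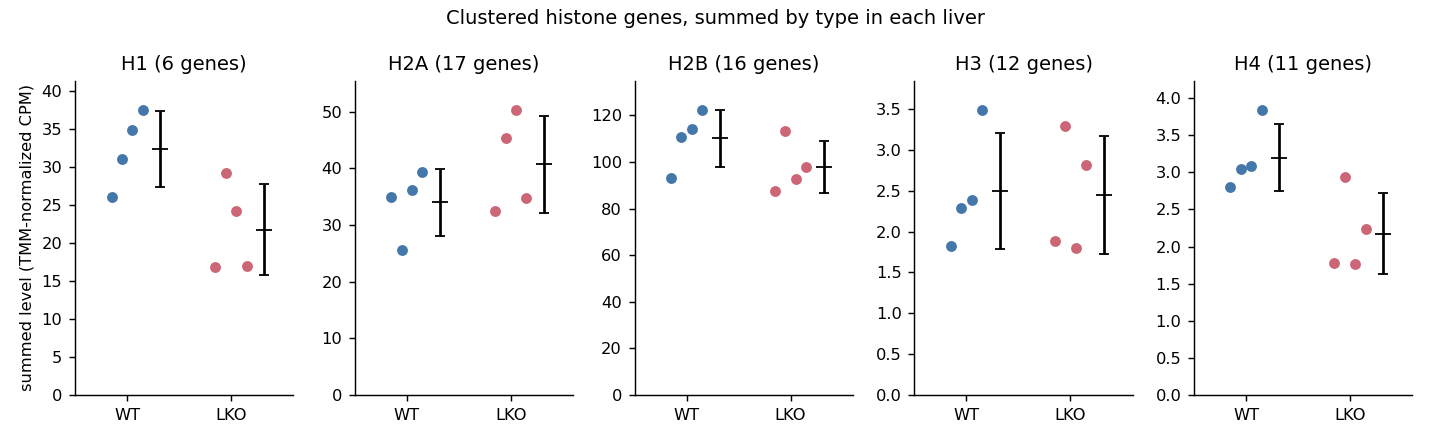
Summed TMM-normalized CPM of all copies of each histone type in 4 WT and 4 E4bp4-LKO (LKO) livers, on axes that start at 0; points are livers and bars the mean ± SD. H1 and H4 have means of 32.4 and 3.20 CPM in WT against 21.8 and 2.18 CPM in E4bp4-LKO, and in every panel the groups overlap on this scale.

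The promoters were read for the elements known in these genes, in the window from 250 bases before to 50 bases after each start in RefSeq (GRCm38.p6), where 56 of the 62 members matched. Each motif was searched on both strands. CCAAT, the element bound by NF-Y, was in 49 of 56 member windows (87.5%) and in 37.9% of all 27025 windows. The octamer ATTTGCAT, bound by OCT1, was in 13 (23.2%) against 1.75% of all, 7 of them H2A and 6 H2B genes. TATAAA was in 30 (53.6%) against 14.2%. The D-box sequence TTATGTAA or TTACGTAA was in 4 (7.14%) against 1.06%: Hist1h3b, Hist1h3i, Hist2h2aa1 and Hist2h2aa2. The windows of Hist2h2aa1 and Hist2h2aa2 are near-copies, and some other member windows overlap, so these counts are not all of separate sites. Hist1h2bc is among the members without a matched window.

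The windows of the pair of H2B genes that were higher are printed because both stood near 0 in WT. Capitals mark CCAAT or its reverse ATTGG and, in Hist1h2ba, the octamer. The Hist1h2bj window is chr13:22042948-22043247 on the plus strand and the Hist1h2ba window is chr13:23934107-23934406 on the minus strand (GRCm38.p6).
Hist1h2bj: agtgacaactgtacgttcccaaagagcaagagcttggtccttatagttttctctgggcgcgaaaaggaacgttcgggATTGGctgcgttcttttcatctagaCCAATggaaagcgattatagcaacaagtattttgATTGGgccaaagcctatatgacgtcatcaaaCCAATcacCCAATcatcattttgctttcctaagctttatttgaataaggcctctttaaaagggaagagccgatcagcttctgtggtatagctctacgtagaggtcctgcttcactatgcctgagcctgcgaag
Hist1h2ba: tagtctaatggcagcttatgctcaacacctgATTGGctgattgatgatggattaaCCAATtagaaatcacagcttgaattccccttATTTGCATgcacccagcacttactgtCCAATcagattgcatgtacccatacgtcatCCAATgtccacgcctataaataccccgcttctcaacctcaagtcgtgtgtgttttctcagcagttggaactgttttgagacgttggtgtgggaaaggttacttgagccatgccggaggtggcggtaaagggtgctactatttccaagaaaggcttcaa
The Hist1h2bj window holds 5 CCAAT copies and no octamer, and the Hist1h2ba window holds 4 CCAAT copies and 1 octamer. Neither holds either D-box sequence, which says only that these letters are not in this window. A match is a run of letters, not a bound site.

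Many H2A and H2B genes lie head to head and share the window between them. In 7 such pairs the promoter windows overlapped, by 220 to 279 bases. The H2A partners of the higher H2B genes were scarce in both groups. Hist1h2ag, partner of Hist1h2bj, was at 10.38 and 3.45 counts in WT 164 and WT 166 and at 0 in the other 6 libraries, and Hist1h2aa, the testis-type H2A partner of Hist1h2ba, peaked at 1.01 counts. Hist1h2ah, partner of Hist1h2bk, peaked at 3.01 counts. The reverse held for Hist1h2ap and Hist1h2ao, which peaked at 350.23 and 61.86 counts beside H2B partners (Hist1h2br and Hist1h2bq) that peaked at 4.48 counts.

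**Figure D3:**
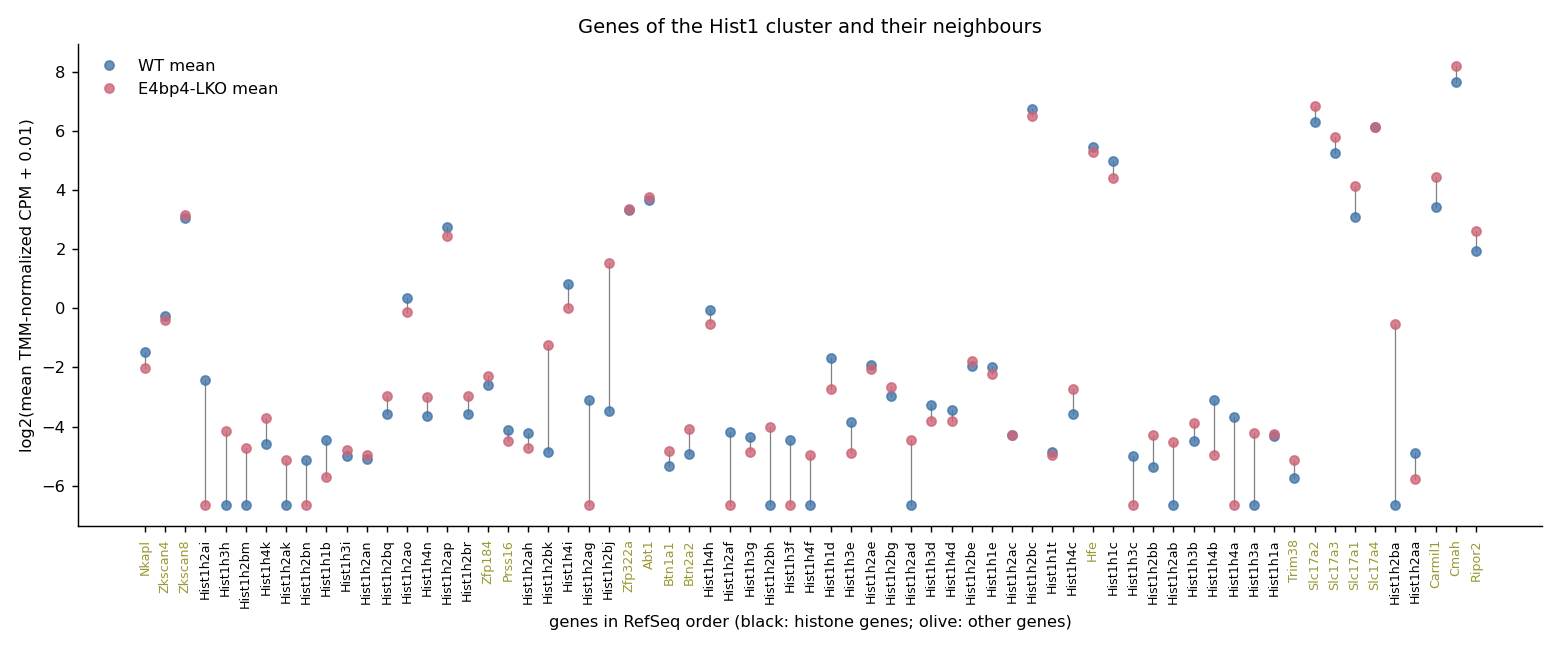
Mean level in WT (blue) and E4bp4-LKO (red) livers, as log2(TMM-normalized CPM + 0.01), of the Hist1 genes and their neighbours on chromosome 13 in RefSeq order; genes at 0 lie at the lower edge and grey lines join the groups. Hist1h2bc and Hist1h1c stand highest among the histone genes, and many long grey lines belong to genes with fewer than 3 counts in most libraries.

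The genes that regulate the clusters showed small differences. Of 15 genes for histone gene transcription (NPAT, HINFP, OCT1, NF-Y and cyclin E-CDK2 among them), 1 fell in edgeR's test and 14 did not pass, with a median log2 fold change of 0.02. The one that fell was E2f1, a factor of S-phase entry, at 12.4 ± 1.09 CPM in WT and 8.72 ± 1.09 CPM in E4bp4-LKO (SD, n = 4 each; log2 fold change -0.51, SE 0.11, adjusted p = 0.0205), and it did not pass without E4bp4-LKO 144 or 145. Nfya, Gon4l and Nfyb, next by p, had log2 fold changes of -0.28, 0.15 and 0.14 and did not pass.

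Of 15 tested genes for histone mRNA 3′ end processing and decay, none passed edgeR's test, none had an unadjusted p below 0.05, and DESeq2 and limma called 0 as well. Slbp was at 13.8 ± 1.67 CPM in WT and 12.0 ± 0.18 CPM in E4bp4-LKO (SD, n = 4 each; log2 fold change -0.20, adjusted p = 0.196). The median of this list was 0.06. Of 11 replication-independent histone genes none passed edgeR's test, and 2 (H1f0 and H3f3b) had an unadjusted p below 0.05. DESeq2 called 1 higher, limma on FPKM called 2 lower, and leaving out E4bp4-LKO 143 gave 1 call. The DESeq2 and limma counts again stand without the share of all genes, and nothing is read from them. H3f3b, which encodes H3.3, was at 188 ± 4.62 and 163 ± 15.3 CPM (SD, n = 4 each; log2 fold change -0.21, adjusted p = 0.121).

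Of 17 histone chaperone genes 1 rose, 2 fell and 14 did not pass. Chaf1b, a subunit of the chromatin assembly factor CAF-1, fell from 3.87 ± 0.56 to 2.44 ± 0.41 CPM (SD, n = 4 each; log2 fold change -0.67, edgeR adjusted p = 0.0354). Hat1, which acetylates new H4, fell by 0.43 on the log2 scale (adjusted p = 0.0441), and Rbbp4, a histone-binding subunit of several complexes, rose by 0.23 (adjusted p = 0.0431). These 3 calls were all lost without any one of WT 164, 165 or 166 or E4bp4-LKO 144, 145 or 179, and 5 were made without E4bp4-LKO 143. Chaf1a had a log2 fold change of -0.80 and did not pass (adjusted p = 0.0614).

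Of 21 S-phase genes tested, 13 fell, 1 rose and 7 did not pass, with a median log2 fold change of -0.65. Of all genes tested, 6.48% fell and the median was 0.01. Among the macrophage, stellate and fibroblast markers given above, edgeR called C1qa, Cd68, Dcn and Lrat lower in the same livers. Adgre1, Clec4f, Col1a1 and Des did not pass edgeR's test, though DESeq2 called Col1a1 lower and its groups did not overlap. The part of the marker shifts in the S-phase list was not tested. Lig1 (-1.01, adjusted p = 0.00343), Mcm5 (-1.08, 0.00733), Gins2 (-1.12, 0.00832) and Mcm2 (-0.99, 0.00979), which ligate nicks and build the replicative helicase, had the smallest p. Tk1, thymidine kinase, rose by 0.58 (edgeR adjusted p = 0.0273). The list gave 6 calls without E4bp4-LKO 144, 9 without 145, 9 without 179, and 4 without WT 164 and 165 together.

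Of 18 mitosis genes 6 fell and 12 did not pass, with a median log2 fold change of -0.94. Cdk1 (-0.99, adjusted p = 0.0202), Top2a (-1.25, 0.0249), Ccnb1 (-1.32, 0.0255) and Tpx2 (-0.87, 0.0285) had the smallest edgeR p. This list gave 3 calls without WT 164, 1 without WT 165, 0 without E4bp4-LKO 144, 3 without 145, 2 without 179, and 0 without WT 164 and 165 together. The summed S-phase list ran from 323 to 423 CPM in WT and 233 to 284 CPM in E4bp4-LKO, and the summed mitosis list from 52.5 to 111 and 26.7 to 44.5 CPM, with no overlap in either. The clustered histone sum overlapped between the groups, and the difference between it and these lists was not tested. The labels do not say whether RNA with poly(A) tails was selected, so how far stem-loop mRNAs were captured is not known.

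**Figure D4:**
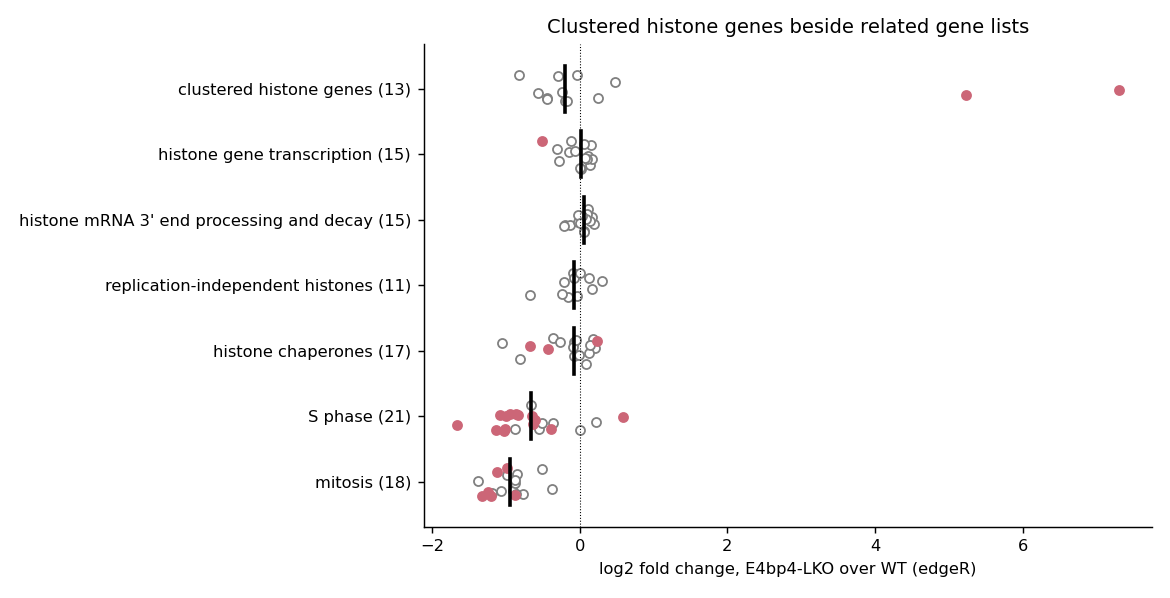
edgeR log2 fold change, E4bp4-LKO over WT, of each tested gene of the clustered histone genes and 6 related lists (number tested in parentheses); filled points have an adjusted p below 0.05, open points do not, and black bars are list medians. The medians of S phase and mitosis lie at -0.65 and -0.94, that of the clustered histone genes at -0.19. The far points at right are Hist1h2bj, chosen for its difference, and Hist1h2ba. The fitted value of Hist1h2ba depends on the prior count because WT is at 0. No test is read from the filled marks of these H2B genes.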

How the data were processed

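Total RNA of 8 mouse livers was sequenced after oligo dT selection or rRNA depletion (which of these is not given) with random-primed, fragmented RNA, per the labels' protocols. The authors deposited one table per library with transcript length, the expected count and FPKM of each gene, per the file headers. HISAT2 is named in the submitters' processing notes; no source used here gives the quantifier, its handling of shared reads, strand, genome build or annotation. A gene with no entry in a table was set to 0.

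Expected counts were rounded and tested with edgeR 4.0.16 in R 4.3.3 (quasi-likelihood, TMM, filterByExpr with a minimum count of 10 and total of 15, Benjamini-Hochberg over 13244 genes, threshold 0.05). DESeq2 1.42.0 and limma 3.58.1 on log2(FPKM + 1) or log2(FPKM + 0.1) were alternatives, as were other scalings and filters and each library left out. The procedure was tested on simulated data. Within each group no pair of libraries was a duplicate (chi-square per degree of freedom 7.52 or more), and pairs across the groups were not compared.

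Named in full were the tested members with the 3 highest mean FPKM of each type, members past the threshold, Hist1h2bj, and of each related list up to 4 genes with the smallest p; others named are stated as chosen after their values were seen or belong to a pair or count. The members, gene lists and marker lists were chosen with earlier results of these data known; 2 marker lists are not reported here. Coding parts, stem-loops and shared windows came from GENCODE M21 transcripts, promoters from RefSeq.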

Additional observations from a re-analysis of the deposited data

Results flagged for a closer look

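In 50 groups of 4 livers the extreme value was compared with its group's range by Dixon's criterion, and 4 groups met it. Single genes were looked at only where they reached 10 counts in a library, which 22 members did. Not all 50 groups are thus of a single gene, but the 4 that met it are. Chance meets it in about 1 in 20 groups, but that rate does not apply to the first 3 below, where the other livers are at 0 and any single listed entry meets it. Hist2h3c1 was at 1.46 CPM in WT 167 and at 0 in the other 3 WT livers. Hist1h4c was at 0.561 CPM in E4bp4-LKO 179 and at 0 in the other 3 E4bp4-LKO livers. Hist1h2bk was at 0.0979 CPM in WT 164, the value of 3.39 counts, and at 0 in the other 3 WT livers. Hist1h2ao was lowest in WT 165, at 0.786 CPM, with the next WT liver at 1.34 CPM.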

How the results depend on the processing

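The count of members past the threshold, 2 by edgeR with TMM, was 5 with library totals and 5 with limma at either pseudocount (2 higher; Hist1h1c, Hist1h2bc and Hist1h4i lower). It was 4 with DESeq2 (Hist1h2ba, Hist1h2bj and Hist1h2bk higher, Hist1h1c lower), 1 without WT 164 and 165 (Hist1h2ba), and 0 with a minimum of 5 CPM, where neither H2B gene could be tested; one library left out gave 2 to 3. Nothing is read from the calls of Hist1h2bj and Hist1h2ba in any of these settings, for the reasons given in the Results. Without WT 164 and 165, Hist1h2bj had a log2 fold change of 4.72. Over all genes, 1436 calls became 2233 with DESeq2, 387 without WT 164 and 165, and 506 to 1539 with one library left out. For the 6 related lists, 24 calls became 4 without WT 164 and 165, and 6 to 28 with one library left out. Without its most abundant copy, the log2 ratio of the type sum was -0.26 for H2A, 1.20 for H2B, -1.16 for H3 and -0.27 for H4, by construction on few counts. The H2B value includes Hist1h2bj, chosen for this contrast. The sign turned for Hist3h2a on leaving out one library (-0.17 without E4bp4-LKO 179 to 0.077 without E4bp4-LKO 144), for Hist2h2aa2 (-1.35 without E4bp4-LKO 145 to 0.32 without WT 164, and 0.65 without WT 164 and 165) and for Hist1h2ap (0.027 without WT 164 and 165); the cause was not tested. The Nfil3 value kept its direction and call in all 17 alternatives. No paired analysis was possible because the mouse numbers are not shared between the groups. Depth limits most members: 40 of 62 never reached 10 counts.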

Other observations

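The genes next to Hist1h2ba at the edge of the cluster, named after their values were seen, were called higher by edgeR in 5 of 7 cases. Of all genes tested, 4.36% were called higher, and nothing is read from a count of genes named in this way. Trim38 and Hist1h2aa, in the same stretch, could not be tested. The stretch lies on chromosome 13, as Nfil3 does. Slc17a1, a sodium-phosphate cotransporter, rose from a mean of 8.47 to 17.7 CPM (log2 fold change 1.06, adjusted p = 0.000485). Slc17a2 and Slc17a3 rose by 0.51 and 0.54 on the log2 scale (adjusted p = 0.0271 and 0.0159), while Slc17a4, between them and Hist1h2ba in RefSeq order, did not pass (0.00, adjusted p = 0.992). On the other side, Carmil1 rose by 1.01 (adjusted p = 0.0108) and Cmah, the CMP-sialic acid hydroxylase, by 0.55 (adjusted p = 0.00496), and Ripor2 did not pass (0.65, adjusted p = 0.191). Beside Hist1h2bj, Zfp322a and Abt1 had log2 fold changes of 0.02 and 0.10, and Hfe, next to Hist1h1c, had one of -0.16; none of the 3 passed (adjusted p = 0.940, 0.507 and 0.205).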
